A study of Rattus norvegicus with 12 samples.

Results

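Ion channels set the membrane potential of a cell and carry the currents by which it fires or fills its organelles with ions. The genes described here code for the voltage-gated sodium channels (*Scn*), the voltage-gated calcium channels with their accessory subunits (*Cacn*), the potassium channels (*Kcn*), the hyperpolarization-activated channels (*Hcn*) and the CLC chloride channels and transporters (*Clcn*). They were chosen by gene symbol alone, as all rows of the expression table whose symbol follows the naming of these families, and 125 of the 21556 genes did. RNA came from ND7/23, 1 permanent line obtained by fusing rat sensory neurons of the dorsal root ganglion with mouse neuroblastoma cells. All libraries were from this line, 6 h after the start of treatment, and there were 3 in each of 4 groups, which makes 12 libraries: control cells, cells with 100 μM menthol, which opens the cold receptor TRPM8, cells with 100 ng/ml Wnt3a, a secreted Wnt ligand, and cells with menthol and Wnt3a together. The comparisons address what each agent does to transcripts and whether menthol alters the response to Wnt3a.

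In a sensory neuron, sodium channel alpha subunits carry the upstroke of the action potential, calcium channels couple it to transmitter release, and potassium channels end it and hold the cell at rest. HCN channels drive the return from hyperpolarization. Among the CLC proteins, some are chloride channels of the surface membrane and others are exchangers of chloride and protons in endosomes and lysosomes, which most cell types need. The alpha subunits of voltage-gated channels form the pore, while beta, gamma and alpha2delta subunits adjust its gating and its transport to the surface.

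The libraries held 36914010 to 38836269 reads on genes, a ratio of 1.052 between the extremes, and 32648 to 35875 of these fell on the channel genes. Expression was deposited as FPKM, which divides the fragments on a gene by its length and by the library's total, and the reads behind each value were recovered. A gene was taken as above the floor in a library with more than 3 reads, a limit that covers counting error only and is 0.0772 to 0.0813 FPKM on a gene of 1 kb. The submitters named the rat build mRatBN7.2, and what became of mouse transcripts in the alignment is unknown, so a low value here is a low value on the rat gene. The labelled sensory neuron identity was visible in part. Of 12 sensory neuron markers, 6 were above the floor in all 12 libraries and 3 had a mean of at least 0.5 FPKM, *Runx1* (32.2 FPKM), *Isl1* (13.2 FPKM) and *Nefh* (5.93 FPKM), whereas *Pou4f1* had 0 to 4 reads per library and *Prph* 0 to 8. Of 10 general neuron markers, 2 reached that mean, *Uchl1* and *Map2*, and *Tubb3* had 0 to 6 reads. Of 6 fibroblast markers 4 did, led by *Col1a2* at 109 to 127 FPKM, and of 13 skeletal muscle markers 3 did. The channel genes are therefore described without reference to a cell type. In RNA from whole cultures, fewer cells of a type and less RNA per cell cannot be told apart.

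To show the sequence that lies at the start of high and low channel genes, the promoters of 4 of them are given, 250 bases before to 50 after the transcription start from RefSeq, build GRCr8, with each CG pair in capitals. *Clcn3* and *Cacnb3* had the highest FPKM of the genes with a promoter in the CLC and calcium channel families. *Clcn4* is a gene of the same family as *Clcn3* with the highest coefficient of variation over the 12 libraries among the 26 tested channel genes (23.1%), and *Scn7a* had the highest level of the sodium channel alpha subunits.
Clcn3, chr16:34137754-34138053, plus strand: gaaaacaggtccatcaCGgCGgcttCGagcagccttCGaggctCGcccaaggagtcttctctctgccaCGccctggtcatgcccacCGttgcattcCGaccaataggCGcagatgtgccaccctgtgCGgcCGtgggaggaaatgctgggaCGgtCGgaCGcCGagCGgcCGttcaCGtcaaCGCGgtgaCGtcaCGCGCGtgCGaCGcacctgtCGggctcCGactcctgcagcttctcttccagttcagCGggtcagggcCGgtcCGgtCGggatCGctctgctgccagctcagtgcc
Cacnb3, chr7:131666301-131666600, plus strand: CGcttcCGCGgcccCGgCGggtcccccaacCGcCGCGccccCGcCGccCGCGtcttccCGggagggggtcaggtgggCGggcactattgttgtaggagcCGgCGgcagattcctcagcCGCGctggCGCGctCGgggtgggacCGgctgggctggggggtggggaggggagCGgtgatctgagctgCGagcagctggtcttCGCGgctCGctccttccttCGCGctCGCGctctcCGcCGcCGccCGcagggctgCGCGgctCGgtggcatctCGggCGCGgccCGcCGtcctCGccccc
Clcn4, chrX:27290689-27290988, plus strand: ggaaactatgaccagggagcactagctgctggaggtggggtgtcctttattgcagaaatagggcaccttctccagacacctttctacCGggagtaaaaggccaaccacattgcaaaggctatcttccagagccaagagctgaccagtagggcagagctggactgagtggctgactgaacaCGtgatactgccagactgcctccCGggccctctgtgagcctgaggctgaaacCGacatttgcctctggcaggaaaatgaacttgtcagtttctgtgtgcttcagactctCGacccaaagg
Scn7a, chr3:71846235-71846534, minus strand: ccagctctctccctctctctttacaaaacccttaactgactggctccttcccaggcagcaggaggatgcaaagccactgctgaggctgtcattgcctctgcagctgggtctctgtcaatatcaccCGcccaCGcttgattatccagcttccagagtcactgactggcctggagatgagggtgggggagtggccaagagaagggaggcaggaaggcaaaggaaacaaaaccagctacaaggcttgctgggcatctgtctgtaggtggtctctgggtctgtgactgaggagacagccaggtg
The *Clcn3* promoter held 33 CG pairs and that of *Cacnb3* 44, against 5 in *Clcn4* and 2 in *Scn7a*. RefSeq promoters were matched for 82 of the 125 channel genes. Taking the promoter richest in CG for each gene, the 17 matched channel genes with a mean of at least 0.5 FPKM had a median of 30 CG pairs, and the 65 below that mean had a median of 15. The same medians were 22 for all matched genes at or above that mean and 7 for all below it, so both the channel genes and genes in general had more CG at the higher level. The cAMP response element TGACGTCA, searched on both strands, occurred in 1 of 21 promoters of the channel genes at or above that mean (4.76%), in *Clcn3* from base 188 of the sequence above, in 3.21% of the promoters of all tested genes and in 1.83% of all promoters of this length. The TCF motif CTTTGAT, searched on both strands, occurred in 1 of the same 21 (4.76%), a second *Clcn3* promoter, in 2.34% of the promoters of all tested genes and in 3.63% of all promoters.

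Few of the 125 channel genes were expressed. More than 3 reads were found in all 12 libraries for 42 of them (33.6%), in 1 to 11 libraries for 41 (32.8%) and in no library for 42 (33.6%). Of all genes, 61.2% were above the floor in all 12 libraries and 17.7% in none. A mean of at least 0.5 FPKM, the level used for testing, was reached by 26 channel genes (20.8%), compared with 53.1% of all genes. *Kcng1* (0.590 FPKM) and *Cacna1a* (0.741 FPKM) lay just above this level, and *Hcn3* (0.439 FPKM) and *Kcnj2* (0.374 FPKM) just below it. The summed level of all 125 genes was 155 to 170 FPKM per library, of which the 26 held 97.4 to 97.9% and the top 4 genes alone 52.8 to 56.0%.

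**Figure D1:**
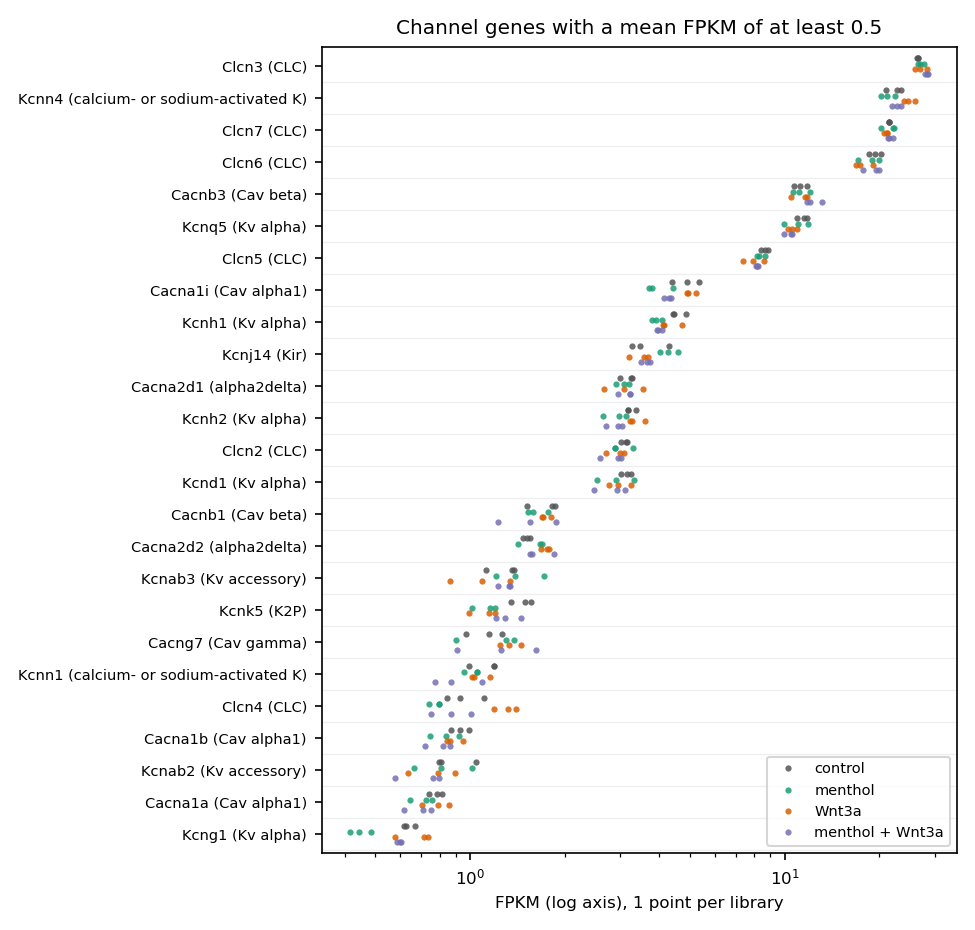
FPKM (log axis) of 25 channel genes with a mean of at least 0.5 FPKM, ordered by mean, with 1 point for each of the 12 libraries, colored by group. Levels fall from *Clcn3* at 25.9 to 28.6 FPKM to *Kcng1* at 0.417 to 0.737 FPKM, and the 4 groups lie close together for most genes.

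CLC genes led the summed level, with 46.0 to 49.5% of it in each library. All 7 were detected above the floor in some library and 6 had a mean of at least 0.5 FPKM. *Clcn3*, an endosomal exchanger, was the highest of all channel genes at 25.9, 27.0 and 28.6 FPKM (lowest, median and highest library). *Clcn7*, the lysosomal exchanger, followed at 20.3, 21.4 and 22.3 FPKM and varied least of the 26, with a coefficient of variation of 2.64% over the 12 libraries. *Clcn6*, a late endosomal exchanger, had 16.9 to 20.2 FPKM, and *Clcn5*, an exchanger of early endosomes, had 7.39 to 8.85 FPKM. The surface chloride channel *Clcn2* (2.59 to 3.30 FPKM) and the exchanger *Clcn4* (0.740 to 1.40 FPKM) were lower. *Ostm1*, the partner subunit of the lysosomal CLC exchanger, was at 24.7 to 28.1 FPKM, close to the range of *Clcn7*.

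Potassium channels were represented by a few genes of each class. The class of calcium- or sodium-activated channels had 8 genes, with accessory subunits counted in it. Among them *Kcnn4*, the intermediate-conductance channel opened by calcium, was at 20.2, 22.7 and 26.0 FPKM (lowest, median and highest library). *Kcnn1*, a small-conductance channel, was at 0.773 to 1.19 FPKM. The large-conductance channel *Kcnma1* had 0 to 7 reads per library. Of the 36 voltage-gated alpha subunits, 5 had a mean of at least 0.5 FPKM and 16 were above the floor in no library. *Kcnq5*, a subunit of the M-current that steadies excitability, led them at 9.97, 10.8 and 11.8 FPKM. *Kcnh1*, of the ether-à-go-go type, had 3.79 to 4.86 FPKM, *Kcnh2*, the hERG channel of cardiac repolarization, 2.64 to 3.60 FPKM, *Kcnd1*, an A-type channel, 2.48 to 3.32 FPKM, and *Kcng1*, a silent subunit that acts only with other alpha subunits, 0.417 to 0.737 FPKM. In contrast, *Kcnq3*, another M-current gene, had 0 to 2 reads.

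The remaining potassium classes each had 1 or 2 genes at that mean. *Kcnj14* led the 12 inward rectifiers at 3.21, 3.66 and 4.59 FPKM, while *Kcnj2*, a major inward rectifier of muscle and heart, had 60 to 108 reads. *Kcnk5*, an acid-sensitive leak channel, led the 12 two-pore genes at 0.993, 1.21 and 1.57 FPKM. The accessory beta subunits *Kcnab3* and *Kcnab2* had means of 1.28 and 0.799 FPKM, and *Kcne2*, a small subunit that modifies other potassium channels, had 17 to 34 reads. *Kcnk7* (13 to 33 reads), *Kcnk6* (5 to 17 reads), *Kcnt1*, a sodium-activated channel (34 to 69 reads), and *Kcnj9* (3 to 14 reads) were all below that mean.

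Among calcium channel genes, the beta subunits held 7.36 to 8.92% of the summed channel level and the pore-forming alpha1 subunits 3.39 to 4.34%. *Cacnb3*, a beta subunit, was at 10.5, 11.7 and 13.2 FPKM, and *Cacnb1* at 1.23 to 1.88 FPKM. Of the 9 pore-forming alpha1 genes, 3 had a mean of at least 0.5 FPKM. *Cacna1i*, the T-type channel Cav3.3 that opens at low voltage, was the highest at 3.72, 4.41 and 5.34 FPKM. *Cacna1b*, the N-type channel of presynaptic terminals, had 0.719 to 0.990 FPKM and *Cacna1a*, the P/Q-type channel, 0.618 to 0.860 FPKM. *Cacna1h*, the T-type channel usual in sensory neurons, had 0 to 1 reads and *Cacna1c*, an L-type channel, 0 to 2. Of other alpha1 genes, *Cacna1d* had 0.0586 to 0.132 FPKM and *Cacna1g* 0.0153 to 0.0731 FPKM. *Cacna2d1*, the alpha2delta subunit to which gabapentin binds, had 2.66 to 3.56 FPKM, *Cacna2d2* 1.42 to 1.85 FPKM and *Cacng7*, a gamma subunit, 0.902 to 1.62 FPKM. *Cacna2d4* (2 to 17 reads), *Cacnb2* (8 to 26 reads), *Cacng2* (0 to 5 reads) and *Cacng3* (0 to 2 reads) were next in mean level within their classes. *Cacng3* was above the floor in no library.

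Sodium channel alpha subunits were low, with 3 of 10 above the floor in all 12 libraries, and the beta subunits *Scn2b* and *Scn4b* had 1 to 7 and 0 to 2 reads. None of the 10 alpha subunits reached the mean of 0.5 FPKM, and together they made up 0.294 to 0.473% of the summed channel level. *Scn7a*, a sodium-sensing channel that is not opened by voltage, had 45 to 121 reads, *Scn2a* 38 to 72 and *Scn1a* 16 to 57, and these are the 3 above the floor throughout. The subunits that carry the sodium current of nociceptors were near 0. *Scn9a* had 0 to 6 reads, *Scn10a* had 1 read in 1 library, and *Scn11a* had 1 read in each of 2 libraries. *Scn8a* had 0 to 5 reads. Of the HCN genes, *Hcn3* had 63 to 138 reads and *Hcn2* 0 to 10.

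**Figure D2:**
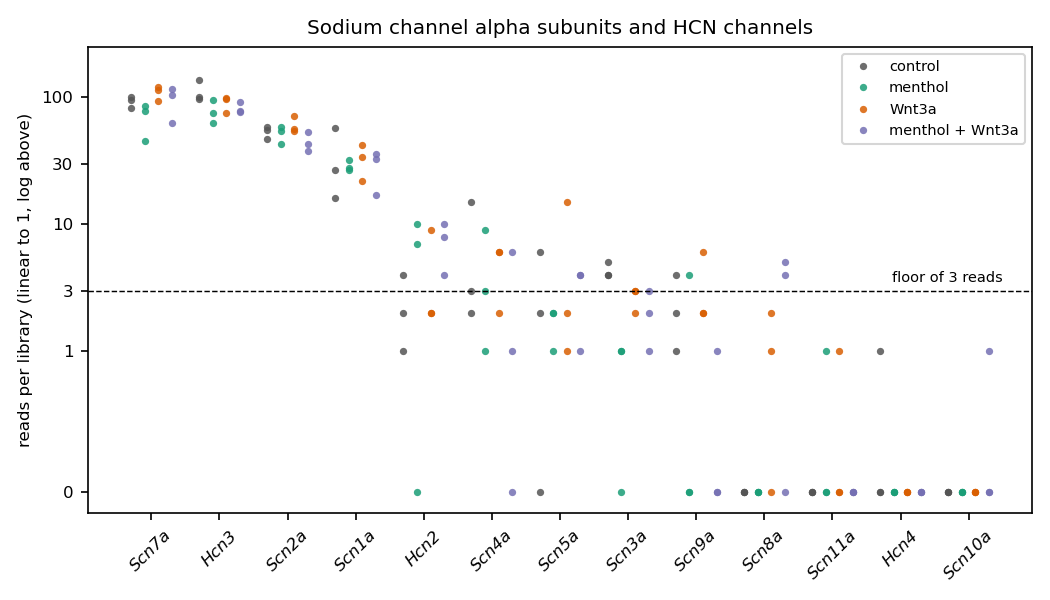
Reads per library of the 10 sodium channel alpha subunits and 3 HCN genes, 1 point per library, colored by group, on an axis that is linear to 1 and logarithmic above, with the floor of 3 reads dashed. *Scn7a*, *Hcn3*, *Scn2a* and *Scn1a* lie above the floor in all 12 libraries, and *Scn10a* has 1 read in all.

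A list of 20 channels known for sensory neurons had 19 in the table, of which 2, *Cacna1b* and *Cacna2d1*, reached the mean of 0.5 FPKM and 9 were above the floor in no library. *Kcna1*, *Kcna2* and *Kcnd3*, voltage-gated potassium channels of sensory neurons, had at most 4 reads in any library, and *Kcnk2*, a mechanically gated leak channel, had 1 to 6. *Rest*, the repressor that keeps neuronal genes off in other cells, was at 5.89 to 7.04 FPKM, from 1559 to 1918 reads. A list of 5 channels of skeletal muscle had 4 in the table, none of which reached that mean. *Clcn1*, the chloride channel of the muscle membrane, had 3 to 29 reads, *Scn4a* 0 to 15, *Cacna1s* 0 to 4 and *Kcnj11* 0 to 2.

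Neighbors in the order of levels mostly overlapped. Of the 25 neighboring pairs among the 26 genes, the ranges over the 12 libraries were apart for 5, namely *Clcn7* and *Clcn6*, *Clcn6* and *Cacnb3*, *Kcnq5* and *Clcn5*, *Clcn5* and *Cacna1i*, and *Kcnd1* and *Cacnb1*. The ranges of the other 20 pairs overlapped. Within libraries, the order of some of these still held, in 12 of 12 libraries for *Kcnj14* above *Cacna2d1* and in 11 of 12 for *Clcn3* above *Kcnn4*, while *Clcn2* was above *Kcnd1* in 5 of 12 and *Kcnk5* above *Cacng7* in 6 of 12.

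Few channel genes differed between the groups. In limma, with all 11451 genes at or above 0.5 FPKM in 1 fit and Benjamini-Hochberg adjustment over them, no channel gene passed both an adjusted p under 0.05 and a 2-fold change in any comparison, and *Cacna1i* alone passed the adjusted p, in the comparison of the 6 libraries with menthol against the 6 without. Fold changes are on the scale of log2(FPKM + 0.1), which understates the change of low genes. Nothing in the labels says that the 3 libraries of a group were separate cultures, so p-values measure only the spread between these libraries, which may be technical.

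*Cacna1i* fell with menthol. It had 4.39, 5.34 and 4.89 FPKM in the 3 control libraries and 3.72, 4.42 and 3.79 FPKM with menthol. It had 4.92, 4.88 and 5.23 FPKM with Wnt3a and 4.28, 4.35 and 4.14 FPKM with both. All libraries with both agents were below all with Wnt3a, whereas the menthol group and the controls overlapped through 1 library each. Over menthol against no menthol, the log2 fold change was -0.26 (SE 0.0574, limma adjusted p = 0.0468). It was -0.29 against control (SE 0.0812, adjusted p = 0.272) and -0.23 between both agents and Wnt3a (SE 0.0812, adjusted p = 0.237). The adjusted p stayed under 0.05 when control replicate 1 (0.0310) or menthol replicate 2 (0.0295) was left out, and was 0.0698 to 0.115 when any 1 of the other 10 libraries was left out. It was 0.105 with no FPKM minimum, 9.5e-04 with limma voom on the recovered reads and 0.0293 with limma voom and no FPKM minimum. Summed fibroblast markers were also lower with menthol. They were at 136 to 145 FPKM in controls, 124 to 128 with menthol, 129 to 135 with Wnt3a and 124 to 126 with both. Most of this sum was *Col1a2*, at 109 to 127 FPKM over the 12 libraries. Of the 4 tested markers, *Col1a2* alone passed the limma adjusted p over menthol against no menthol (1.15% of all tested genes). *Dcn* had 0 to 22 reads and *Lum* 1 to 13 per library. The part of these markers in the *Cacna1i* result was not tested.

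The other genes with a smaller level under menthol did not pass the adjusted p. *Clcn4* had 0.846, 0.930 and 1.11 FPKM in controls and 0.796, 0.797 and 0.740 FPKM with menthol. It had 1.19, 1.32 and 1.40 FPKM with Wnt3a and 1.01, 0.753 and 0.868 FPKM with both. The menthol libraries lay below the controls, and the Wnt3a libraries above both the controls and the libraries with both agents. Its log2 fold change was -0.40 over menthol against no menthol (SE 0.0982, limma adjusted p = 0.0685), -0.53 between both agents and Wnt3a (SE 0.139, adjusted p = 0.136) and 0.41 between Wnt3a and control (SE 0.139, adjusted p = 0.186). With limma voom on the recovered reads, the first 2 of these had an adjusted p of 0.0106 and 0.0241, and 0.0629 and 0.124 with no FPKM minimum as well.

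For *Kcnh1* and *Kcnh2*, the 2 ether-à-go-go genes that were tested, the 6 libraries with menthol lay below the 6 without, an arrangement that 2 of the 26 tested channel genes and 0.742% of all tested genes had. *Kcnh6*, of the same family and below the tested level, did not have it, with 0.279 to 0.365 FPKM in controls, 0.247 to 0.330 with menthol, 0.265 to 0.330 with Wnt3a and 0.276 to 0.384 with both. *Kcnh1* had 4.46, 4.86 and 4.42 FPKM in controls, 3.79, 3.89 and 4.07 FPKM with menthol, 4.13, 4.11 and 4.71 FPKM with Wnt3a and 3.95, 3.93 and 4.07 FPKM with both. *Kcnh2* had 3.19, 3.17 and 3.37 FPKM in controls, 2.64, 2.97 and 3.14 FPKM with menthol, 3.28, 3.60 and 3.23 FPKM with Wnt3a and 3.04, 2.71 and 2.96 FPKM with both. Their log2 fold changes over menthol against no menthol were -0.16 (SE 0.0488, limma adjusted p = 0.130) and -0.18 (SE 0.0577, limma adjusted p = 0.160). For *Kcnh1* the adjusted p was 0.0318 with limma voom and 0.126 with limma voom and no FPKM minimum. *Kcng1*, the silent subunit, had 0.619, 0.671 and 0.626 FPKM in controls, 0.417, 0.445 and 0.484 FPKM with menthol, 0.737, 0.578 and 0.712 FPKM with Wnt3a and 0.604, 0.584 and 0.601 FPKM with both. Its menthol libraries were the lowest of all 12, and its log2 fold change against control was -0.43 (SE 0.148, limma adjusted p = 0.388).

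*Kcnn4* and *Kcnk5* were, with *Clcn4* and *Clcn5*, the 4 of 26 tested channel genes with an unadjusted p under 0.05 for Wnt3a against control. Of all tested genes, 15.1% had one. None of the 4 passed the adjusted p in limma, beside 0.437% of all tested genes. *Kcnn4* had 21.1, 23.5 and 22.8 FPKM in controls, 20.2, 22.4 and 21.1 FPKM with menthol, 24.7, 26.0 and 23.9 FPKM with Wnt3a and 21.9, 22.7 and 23.4 FPKM with both. The Wnt3a libraries were the 3 highest. The log2 fold change was 0.15 against control (SE 0.0506, limma adjusted p = 0.190), -0.13 between both agents and Wnt3a (SE 0.0506, adjusted p = 0.262) and 0.12 over Wnt3a against no Wnt3a (SE 0.0357, adjusted p = 0.136). In the test over the 4 groups its adjusted p was 0.114 with limma, 0.0274 with limma voom and 0.153 with limma voom and no FPKM minimum.

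*Kcnk5* had 1.57, 1.35 and 1.49 FPKM in controls, 1.01, 1.16 and 1.20 FPKM with menthol, 1.15, 0.993 and 1.20 FPKM with Wnt3a and 1.21, 1.45 and 1.29 FPKM with both. The libraries with either agent alone lay below all controls, and the libraries with both agents lay above those with either agent alone and overlapped with the controls. The log2 fold change was -0.36 with menthol (SE 0.120, limma adjusted p = 0.377) and -0.37 with Wnt3a (SE 0.120, adjusted p = 0.164). The interaction of the agents was 0.58 on the log2 scale (SE 0.169, unadjusted p = 0.00399, limma adjusted p = 0.715). It was the only channel gene with an unadjusted p under 0.05 in the interaction, where 6.99% of all tested genes had one.

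**Figure D3:**
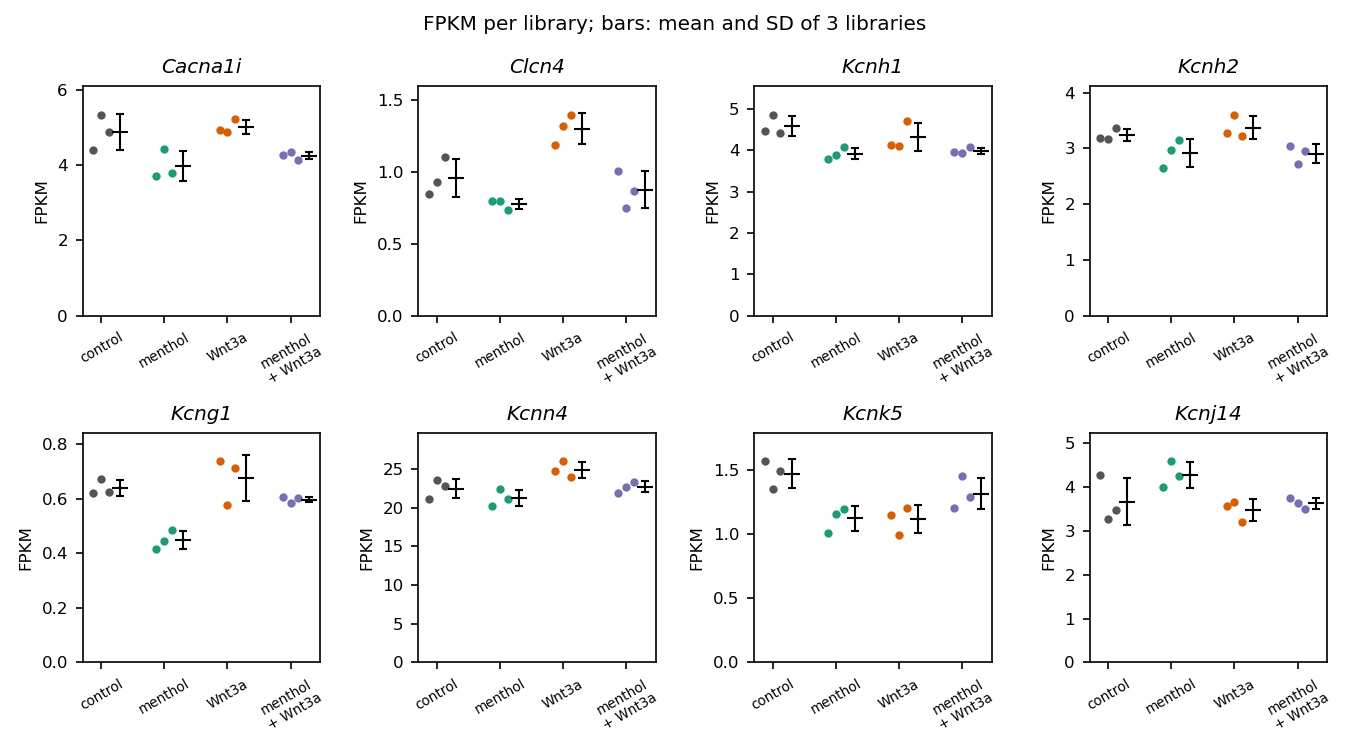
FPKM per library (axis from 0) of 8 channel genes in the 4 groups, with the mean and SD of the 3 libraries beside the points. *Kcnh1* and *Kcnh2* have all 6 menthol libraries below the 6 others, and the *Kcnk5* controls lie above all libraries with menthol or Wnt3a alone.

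*Kcnj14* was the channel gene with the largest positive change under menthol alone. It had 4.28, 3.26 and 3.47 FPKM in controls, 4.01, 4.59 and 4.25 FPKM with menthol, 3.57, 3.67 and 3.21 FPKM with Wnt3a and 3.74, 3.65 and 3.51 FPKM with both. Menthol and control overlapped, and the libraries with both agents were below those with menthol. The log2 fold change was 0.23 for menthol against control (SE 0.0950, limma adjusted p = 0.502) and -0.23 for both agents against menthol (SE 0.0950, adjusted p = 0.651). The high CLC genes moved less. *Clcn3* averaged 26.5 ± 0.0687 FPKM (SD, n = 3) in controls and 27.1 ± 0.582 with menthol, 27.1 ± 1.24 with Wnt3a and 28.3 ± 0.358 with both, and *Clcn7* averaged 21.5 ± 0.0220, 21.6 ± 1.10, 21.1 ± 0.254 and 21.6 ± 0.425 FPKM in the same order.

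The counts of channel genes past each threshold stand beside the share of all tested genes past it in either direction. For menthol against control, 0 of the 26 were called at the adjusted p and 2-fold (0.00873% of all tested genes), 0 at the adjusted p alone (0.105% of all), and 5 at an unadjusted p under 0.05, 1 higher and 4 lower (9.34% of all). For Wnt3a against control the counts were 0 (0.0175%), 0 (0.437%) and 4, with 2 in each direction (15.1%). For both agents against Wnt3a they were 0 (0%), 0 (0.0524%) and 4, all lower (14.5%), and for both against menthol 0 (0%), 0 (0.0961%) and 2 (6.72%). Limma voom on the same genes put 1 channel gene past the adjusted p for menthol against control, *Cacna1i* (0.524% of all tested genes), and 1 for both agents against Wnt3a, *Clcn4* (1.25%). It put 0 past it for Wnt3a against control (2.65%) and for both agents against menthol (0.288%).

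Over menthol against no menthol, 0 of 26 were called at 2-fold (0.00873% of all) and 1 passed the adjusted p (1.15%). At an unadjusted p under 0.05 there were 6, all lower, beside 15.5% of all in either direction. Over Wnt3a against no Wnt3a, 0 were called at 2-fold (0%), 0 passed the adjusted p (0.803%) and 4 had an unadjusted p under 0.05 (14.2%). For the interaction, 0 channel genes and 0% of all genes were called at 2-fold, 0 and 0% passed the adjusted p, and 1 had an unadjusted p under 0.05. In the limma test of any difference among the 4 groups, 0 passed the adjusted p (0.978% of all) and 7 had an unadjusted p under 0.05 (17.4%). By limma voom, *Cacna1i*, *Clcn4* and *Kcnh1* passed over menthol against no menthol, 3 channel genes beside 2.57% of all tested genes. In the limma voom test over the 4 groups *Cacna1i*, *Clcn4* and *Kcnn4* passed, 3 beside 4.37% of all. It put 0 past the adjusted p over Wnt3a against no Wnt3a (2.44%) and for the interaction (0%).

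Over menthol against no menthol, 6 of the 26 channel genes were higher and 20 lower, with a median log2 fold change of -0.06, beside -0.00098 for all tested genes. The range was -0.40 for *Clcn4* to 0.19 for *Kcnab3*. Over Wnt3a against no Wnt3a, 10 were higher and 16 lower, with a median of -0.02 beside 0.0032 for all tested genes. The median size of the change was 0.0954 for menthol and 0.0738 for Wnt3a on the log2 scale, and 0.0452 and 0.0429 over all tested genes. With only genes at a mean of at least 1 FPKM, it was 0.0650 for menthol and 0.0728 for Wnt3a. Over all genes at that mean it was 0.0429 and 0.0406. The part of the low level of many channel genes in these differences was not tested.

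**Figure D4:**
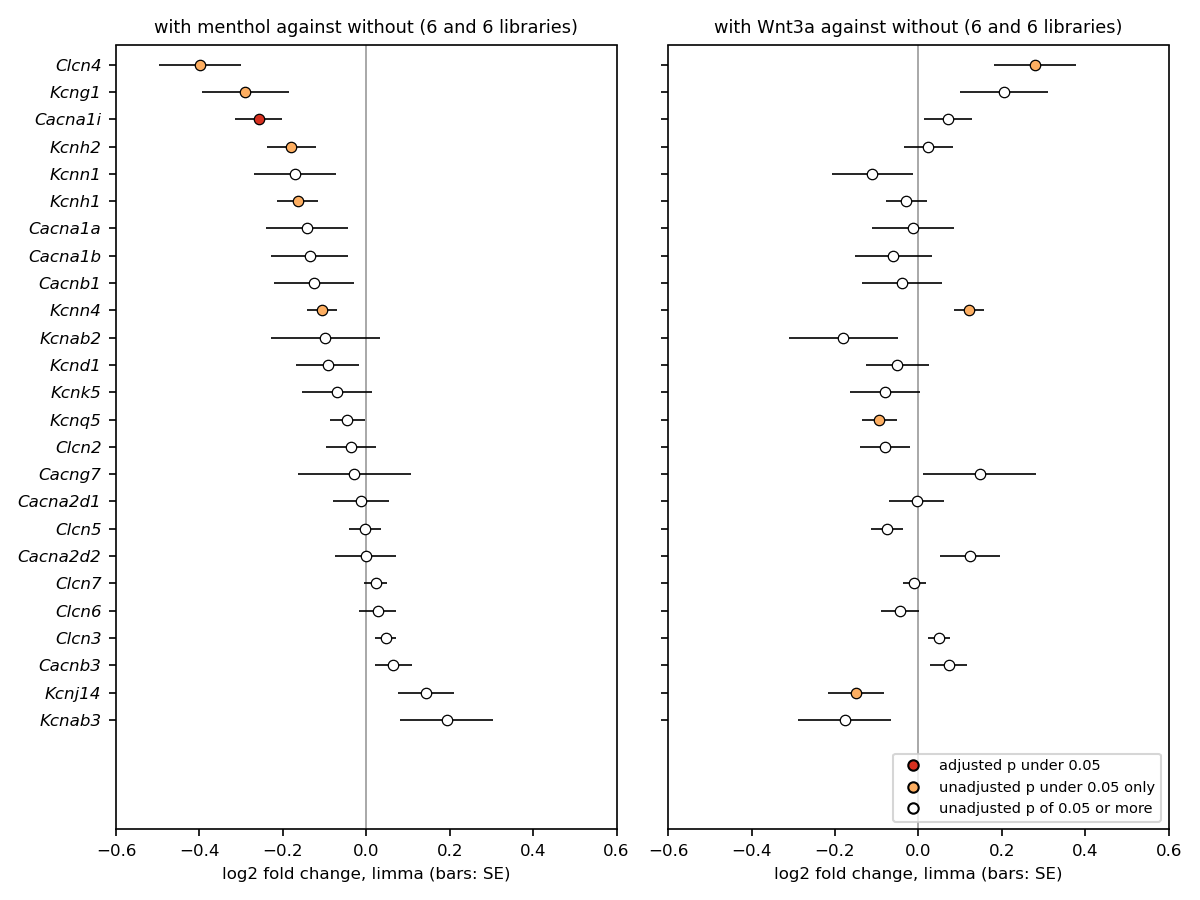
Log2 fold changes from limma, with SE bars, of 25 tested channel genes for 6 libraries with menthol against 6 without (left) and 6 with Wnt3a against 6 without (right), ordered by the menthol value. *Cacna1i* at -0.26 is the point past the adjusted p, and most points on the left lie below 0.

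Sums over each class are given without a test. The alpha1 calcium channel genes summed to 6.73 ± 0.600 FPKM (SD, n = 3) in controls, 5.67 ± 0.392 with menthol, 6.85 ± 0.287 with Wnt3a and 5.89 ± 0.0777 with both, and most of this sum was *Cacna1i*. The CLC genes summed to 80.1 ± 0.872, 79.6 ± 2.76, 78.3 ± 2.51 and 81.0 ± 0.830 FPKM, and the voltage-gated potassium alpha subunits to 23.5 ± 0.595, 21.6 ± 1.23, 22.4 ± 0.595 and 21.2 ± 0.649 FPKM, in the same order of groups. The sodium channel alpha subunits summed to 0.637 ± 0.131, 0.516 ± 0.0452, 0.738 ± 0.0427 and 0.591 ± 0.112 FPKM.

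Genes that work with these channels were given as 2 further lists. Of 32 channel partners (anchoring ankyrins, gating and trafficking proteins, *Rest*), 27 were in the table and 6 were tested. None passed the adjusted p in any comparison by limma, beside 0 to 1.15% of all tested genes. At an unadjusted p under 0.05 there were at most 2 in any 1, in the interaction, beside 6.99% of all. Of 30 genes of other anion channels, 30 were in the table and 14 were tested. In limma 1 of them passed, for menthol against control (0.105% of all tested genes) and over menthol against no menthol (1.15%). It also passed in the test over the 4 groups (0.978%). *Clic5*, of the chloride intracellular channel family, had 40.4, 42.1 and 39.9 FPKM in controls, 32.4, 34.5 and 34.2 FPKM with menthol, 37.0, 37.4 and 38.4 FPKM with Wnt3a and 33.4, 33.8 and 33.8 FPKM with both. All 6 menthol libraries were below the 6 others, as for 0.742% of all tested genes. *Clic5* fell by 0.28 on the log2 scale with menthol against control (SE 0.0338, limma adjusted p = 0.0135) and by 0.22 over menthol against no menthol (SE 0.0239, adjusted p = 8.5e-04). Between both agents and Wnt3a the log2 fold change was -0.16 (SE 0.0338, limma adjusted p = 0.0836).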

How the data were processed

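Total RNA of 12 ND7/23 libraries was sequenced as paired-end reads. The authors used fastp to filter the reads, HISAT to align them, HTSeq to count genes, DESeq2 for their own comparisons and R 3.2.0 for plots and enrichment, and the processing notes name the rat build mRatBN7.2; other tool versions are not given in the sources used here. The authors deposited FPKM for 21556 genes, with 1 column per library and no pooling. FPKM is relative to a library's total, so a change in abundant genes shifts all others.

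For a given gene and library each read is worth a fixed amount of FPKM, and read counts were recovered by a search for whole multiples within a relative tolerance of 1e-09. They came out whole for 100.0% of genes (21556 of 21556). For 1804 genes, 12 of them channel genes, only 1 library was above 0, so their reads rest on 1 value and could be understated. The chi-square of replicates over genes with at least 20 reads was 3.53 to 7.61 per degree of freedom in 12 pairs, so no library was a repeat of another.

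Groups and replicate numbers came from the sample labels. The main test was limma 3.58.1 in R 4.3.3 on log2(FPKM + 0.1), for genes with a mean of at least 0.5 FPKM (11451 genes), with all 4 groups in 1 fit, a mean-variance trend and Benjamini-Hochberg adjustment. Calls required an adjusted p under 0.05 together with over 2-fold change. The fit was tested on simulated data. Alternatives were pseudocounts of 0.01 and 1, a mean of at least 1 FPKM or none, median centring, fits of the compared groups alone, the replicate number as a block, each library left out in turn, and limma voom on recovered reads.

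The channel genes and lists were chosen with earlier results of these data known. Genes named were the 3 highest per class, any past the adjusted p, the 3 smallest p in each direction per comparison, and channels known for sensory neurons and skeletal muscle. *Kcnk18*, *Cacng1*, *Cacna1f* and other symbols of these families without a row are not analysed here, and some genes that these rules cover are counted but not reported here. Promoters came from RefSeq (GRCr8), a later build than that of the reads.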

Additional observations from a re-analysis of the deposited data

How the results depend on the processing

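Over 23 alternatives, some of which applied to counts only, none of 857 values for 42 pairs of a channel gene and a comparison reversed. The adjusted p kept its side of 0.05 for 842 of them, while 11 lost and 4 gained an adjusted p under 0.05. All 11 were *Cacna1i* over menthol against no menthol, the only pair that passed in the main fit. For every other pair, keeping its side meant staying at 0.05 or above. Of 311 counts, 295 stayed within 1.5 times. The count of channel genes past the adjusted p moved from 1 to 0 over menthol against no menthol with no FPKM minimum (0.394% of all genes). It ranged from 0 to 1 when each library was left out in turn, beside 52 to 143 of all 11451 tested genes. With limma voom on the recovered reads it was 3 over menthol against no menthol (2.57% of all tested genes), 1 for menthol against control (0.524%), 1 for both agents against Wnt3a (1.25%) and 3 for any difference among the 4 groups (4.37%). With limma voom and no FPKM minimum these were 1 (0.524%), 0 (0.121%), 0 (0.0742%) and 1 (0.821%). The cause of these shifts was not tested, and leaving out a library changes both the number of libraries and the values. Leaving out a library made the *Cacna1i* log2 fold change over menthol against no menthol -0.30 to -0.225.

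The labels do not say whether the replicate number pairs libraries, and the values did not settle it. Deviations from the group means correlated at -0.055 to 0.153 over 18 pairs with the same number, 1 of them over 0.1. The median was 0.013, and -0.006 over pairs with different numbers. On average, 7 of 12 libraries were closest to their own number. The share of all tested genes past the adjusted p went from 1.15 to 1.37% with the block over menthol against no menthol. For both agents against menthol it went from 0.0961 to 0.0873%. With the replicate block, 1 channel gene passed the adjusted p over menthol against no menthol (*Cacna1i*, limma adjusted p = 0.0372) and 0 in each other comparison, and the channel genes at an unadjusted p under 0.05 went from 4 to 6 for both agents against Wnt3a (14.5 to 16% of all tested genes), from 2 to 4 for both against menthol (6.72 to 7.92%) and from 1 to 2 for the interaction (6.99 to 8.11%).

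The values of many channel genes below 0.5 FPKM rest on few reads, and 74 of the 125 were above 10 reads in no library. Others below it, such as *Hcn3* and *Scn7a*, had more than 10 reads in all 12. At a mean of at least 0.1 FPKM 37 channel genes would be counted as expressed and at 1 FPKM 21, and 37 had more than 10 reads in all 12 libraries.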

Other observations

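Channel genes below 0.5 FPKM were outside the test. In the limma fit with no FPKM minimum, 11 of these 99 had an unadjusted p under 0.05 in at least 1 of 7 comparisons, with 1 to 5 of them in each, beside 5.51 to 10.5% of all genes, and none passed the adjusted p (lowest 0.139). 3 of the 11 are given, chosen after their values were seen. *Clcn1*, the chloride channel of skeletal muscle, had 27, 11 and 19 reads in controls, 6, 19 and 3 with menthol, 24, 24 and 29 with Wnt3a and 6, 7 and 10 with both. The libraries with both agents were below all with Wnt3a alone, and menthol overlapped with control. Its log2 fold change over menthol against no menthol was -0.57 (SE 0.137, limma adjusted p = 0.139). Summed skeletal muscle markers were at 8.94 to 10.5 FPKM in controls, 8.93 to 10.8 with menthol, 10.8 to 12.04 with Wnt3a and 8.73 to 11.3 with both, with 3 of 13 markers at a mean of at least 0.5 FPKM, and their part in this value was not tested.

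*Scn3a*, a sodium channel of immature neurons, had 5, 4 and 4 reads in controls, 1, 0 and 1 with menthol, 3, 2 and 3 with Wnt3a and 1, 3 and 2 with both. The controls were the highest libraries, and 9 of the 12 libraries were at or below the floor of 3 reads. Its limma adjusted p for menthol against control was 0.605. *Cacng3*, a gamma subunit of brain, had no read in the control and menthol libraries, 1 read in 1 Wnt3a library, and 1, 2 and 1 reads with both agents, all at or below the floor.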
